A study of Mus musculus with 8 samples.

Results

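The interferon response and the class I arm of the major histocompatibility complex (MHC) were followed through 41 genes in fibro/adipogenic progenitors (FAPs), the mesenchymal cells of the muscle interstitium. The genes were chosen by name as interferon-stimulated genes or genes of class I antigen presentation. The rule uses no measured value, but the list was drawn up with earlier results of these data known. All 41 had at least 1 count, among 31053 genes in the count files, and 25 of them had enough counts to be tested, among 10181 tested genes. FAPs came from hind limb muscles of *mdx* mice (strain C57BL/10ScSn-Dmdmdx/J, age 45 days), which lack dystrophin in both groups. They were sorted by surface SCA-1 into SCA1-High-FAPs and SCA1-Low-FAPs, with 4 samples of each, and were then grown for 5 days in growth medium with 20% fetal bovine serum before RNA was taken. The protocols name no added interferon, and no adipogenic stimulus had yet been given. The comparison asks how the mRNA levels of the 2 cell states differ before differentiation is induced.

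Interferons are secreted cytokines that bind receptors on the cell surface. The type I receptor (*Ifnar1*, *Ifnar2*) signals through the kinases JAK1 and TYK2 to a complex that contains STAT2 and IRF9 and binds the interferon-stimulated response element (ISRE), whereas the type II receptor (*Ifngr1*, *Ifngr2*) leads to transcription from the gamma-activated site (GAS). The genes switched on in this way sense viral RNA, block viral replication, attach the ubiquitin-like protein ISG15 to other proteins, or help to show peptides to cytotoxic T cells. In the class I pathway the proteasome cuts proteins into peptides, the TAP transporter moves them into the endoplasmic reticulum, tapasin helps to load them onto a heavy chain (H2-K1 or H2-D1), and beta-2 microglobulin completes the complex that travels to the surface.

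Libraries were of the 3′ mRNA kind, in which a transcript yields reads near its 3′ end whatever its length, and the deposited values are raw counts. Between 1880561 and 3985656 reads per sample fell on genes. Levels are given as CPM, that is, counts put on one library size with edgeR's TMM factors, and 3 counts, taken as the least that the depth can show, correspond to 0.792 to 1.63 CPM depending on the sample. This floor covers counting error only. Log2 fold changes divide the Low by the High state, so that genes with a negative sign had the higher level in SCA1-High-FAPs, and the standard error (SE) follows each of them. A gene was called when edgeR's quasi-likelihood test gave a Benjamini-Hochberg adjusted *p*-value under 0.05 and the log2 fold change was larger than 0.5 in size. All adjusted *p*-values below are from this test, over all 10181 tested genes, unless DESeq2, another setting or a fit without a sample is named. Those values were adjusted over the genes tested in that fit.

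The names of the cell states refer to the sort and not to the mRNA after culture. *Ly6a*, which encodes SCA-1 and is itself an interferon-inducible gene, stood at 492, 789, 645 and 919 CPM in SCA1-High-FAPs and at 1100, 1080, 1156 and 1014 CPM in SCA1-Low-FAPs. All samples of SCA1-Low-FAPs were above those of SCA1-High-FAPs, with a log2 fold change of 0.61 (SE 0.17, adjusted *p* = 0.0341). That call was kept without replicate 4 of SCA1-High-FAPs (adjusted *p* = 0.0124) and lost without any other sample (0.0513 to 0.0947). All 8 FAP markers had enough counts to be tested, 4 with a negative and 4 with a positive log2 fold change. Besides *Ly6a*, *Thy1* was called higher in SCA1-Low-FAPs (0.67, adjusted *p* = 0.0105, and 0.0507 without replicate 1 of SCA1-Low-FAPs). *Dcn* was called higher in SCA1-High-FAPs (−2.08, adjusted *p* = 0.0167, and 0.0504 and 0.0537 without replicate 2 or 4 of SCA1-Low-FAPs). *Pdgfra* did not pass (−0.41, adjusted *p* = 0.159). Of 10 leukocyte markers, *Itgam*, *Adgre1*, *Tyrobp*, *Cd3e* and *Cd79a* had 0 counts in every sample, and the list summed to 26.7 to 48.0 CPM in SCA1-High-FAPs against 12.5 to 19.4 CPM in SCA1-Low-FAPs. *Lyz2* made up most of this sum in SCA1-High-FAPs. It was higher in SCA1-High-FAPs (log2 fold change −1.42, SE 0.34, adjusted *p* = 0.0153) and lost its call without replicate 1 of either cell state (0.0529 and 0.056). Of 6 myogenic markers 4 had 0 counts throughout and the list summed to at most 12.5 CPM, in replicate 2 of SCA1-Low-FAPs, while the 6 endothelial markers summed to at most 7.39 CPM. 8 adipocyte markers summed to 410 to 3514 CPM in SCA1-High-FAPs and 33.0 to 164 CPM in SCA1-Low-FAPs, and 8 mitosis genes to 646 to 883 CPM and 1254 to 1866 CPM. The part of these shifts in the results below was not tested.

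Interferon and class I genes were shifted towards SCA1-High-FAPs. Of the 25 tested genes, 5 were called, all of them higher in SCA1-High-FAPs: *Ifih1*, *Samhd1*, *Tapbp*, *B2m* and *Psme1*. That is 5 of 25 where 4.36% of all tested genes were called in this direction and 7.68% in either. None was called higher in SCA1-Low-FAPs, a direction in which 3.32% of tested genes were called. By unadjusted *p* under 0.05 edgeR gave 0 genes in that direction (10.4% of all tested) and 11 in the other (10.8%), and DESeq2 also found 0 such calls. A negative log2 fold change was seen for 23 of the 25 genes and for 50% of all tested genes, and its median was −0.58 against 0.00. In 11 of the 25, every SCA1-High-FAPs sample was above every SCA1-Low-FAPs sample, compared with 7.46% of tested genes, and the reverse order occurred in 0 of the 25 compared with 6.67%. These counts cover only genes that passed the filter, and 3 of these (*Stat2*, *Ifih1* and *Dtx3l*) reached 10 counts in all SCA1-High-FAPs samples but not in all SCA1-Low-FAPs samples. With the 16 untested genes included, the mean CPM was higher in SCA1-High-FAPs for 39 of 41. That number is given without the share over all genes with a count, and the 50% above covers tested genes only. The 16 had 4 to 101 counts each over the 8 samples, so their direction carries little weight. In RNA from whole cultures, fewer cells with a transcript and less of it per cell cannot be told apart.

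**Figure D1:**
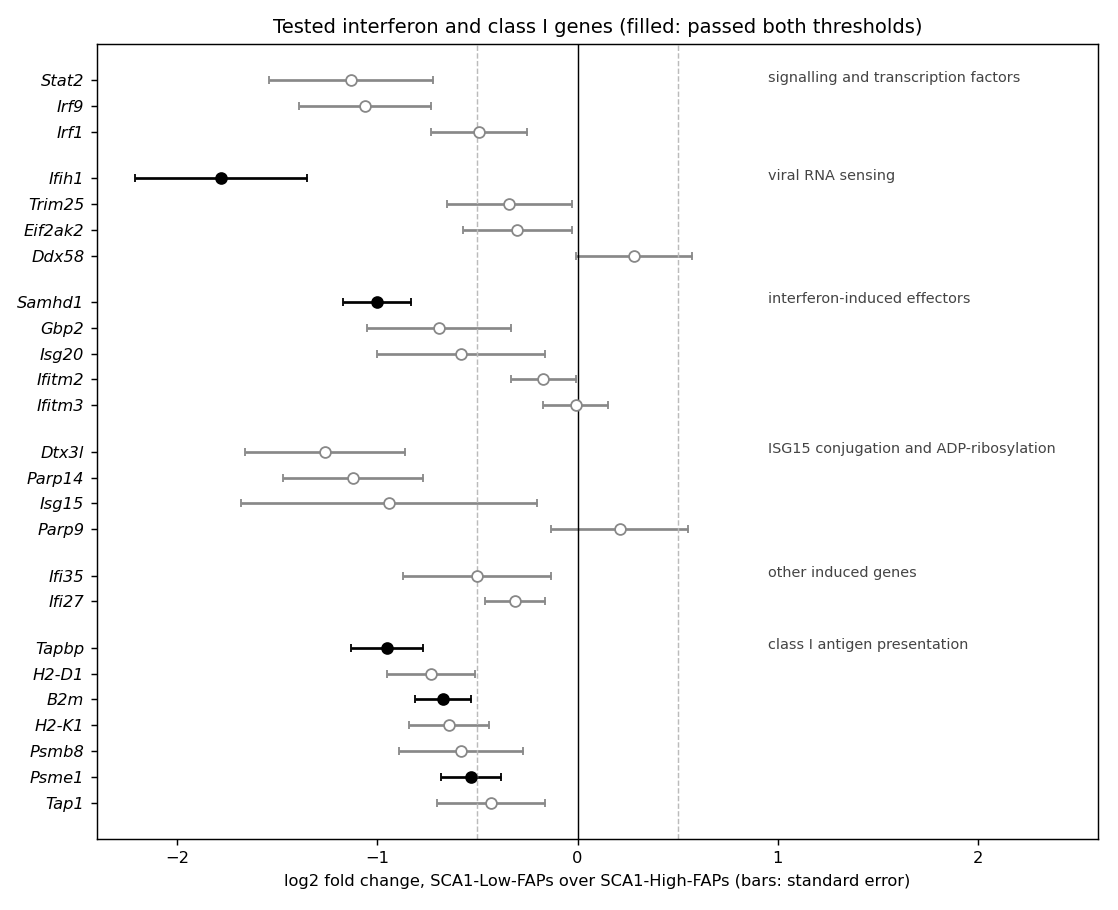
Log2 fold change, Low over High (x axis), for the 25 tested genes (y axis), grouped by role, with SE bars. Filled points passed both thresholds, dashed lines mark 0.5 in either direction, and 23 of the 25 points lie left of 0.

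Spread within a cell state was not alike. Among the 25 tested genes, replicates 1, 2 and 4 of SCA1-Low-FAPs held the lowest value of 9, 7 and 7 genes, while replicate 3 held the lowest of 0 and the highest of 0. Without replicate 3, 8 genes of the 41 were called, where 9.85% of all genes tested in that fit were, and without replicate 4 of SCA1-Low-FAPs 3 were called, where 3.96% of all were. DESeq2 on all samples called 11 of the 41, where 8.53% of all genes with a DESeq2 result were called. The 3 that were called in every one of the 8 fits with a sample left out were *Samhd1*, *Tapbp* and *B2m*.

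Class I antigen presentation held 3 of the 5 called genes, from 8 genes listed and 7 tested. Of all tested genes, 4.36% were called higher in SCA1-High-FAPs. All 7 had negative log2 fold changes, as did 50% of all tested genes. *B2m*, the light chain shared by all class I complexes (chromosome 2 of GRCm38, from 122147686 to 122153083), stood at 853, 753, 889 and 636 CPM in SCA1-High-FAPs and at 512, 469, 522 and 464 CPM in SCA1-Low-FAPs. The groups did not overlap, and SCA1-Low-FAPs varied little around 492 ± 29.5 CPM (SD, n = 4). Its log2 fold change came to −0.67 (SE 0.14, adjusted *p* = 0.00762), a level 1.59-fold higher in SCA1-High-FAPs. *Tapbp*, which encodes tapasin and lies in the MHC region (chromosome 17, from 33915899 to 33929292), was at 146, 151, 213 and 124 CPM in SCA1-High-FAPs and 84.6, 90.4, 86.9 and 67.9 CPM in SCA1-Low-FAPs. It differed 1.93-fold (log2 fold change −0.95, SE 0.18, adjusted *p* = 0.00398), again without overlap. The gene model of *Tapbp* overlaps *Zbtb22* on the same strand.

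*Psme1*, a subunit of the interferon-inducible PA28 cap of the proteasome (chromosome 14, from 55578123 to 55581529), had the smallest change of the called genes. Its levels were 156, 137, 147 and 149 CPM in SCA1-High-FAPs and 91.8, 117, 110 and 90.8 CPM in SCA1-Low-FAPs, with no overlap. The log2 fold change of −0.53 (SE 0.15) gave an adjusted *p* of 0.0441, which stayed under 0.05 without replicate 3 of SCA1-Low-FAPs (0.0436) and ran from 0.0522 to 0.144 when any other sample was left out. With no filter beyond 1 count it was 0.0744. It overlaps *Emc9* on the opposite strand.

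The heavy chains lay close to the threshold, and whether they passed it depended on the setting. *H2-D1* was at 145, 106, 93.5 and 128 CPM in SCA1-High-FAPs and 42.5, 86.0, 90.4 and 64.9 CPM in SCA1-Low-FAPs, and its log2 fold change was −0.73 (SE 0.22, adjusted *p* = 0.0509). The lowest SCA1-High-FAPs sample lay just above the highest SCA1-Low-FAPs sample. *H2-K1* was at 115, 83.6, 112 and 77.0 CPM in SCA1-High-FAPs and 58.5, 58.8, 80.3 and 51.0 CPM in SCA1-Low-FAPs, with −0.64 as log2 fold change (SE 0.20, adjusted *p* = 0.0594), and here replicate 3 of SCA1-Low-FAPs reached into the range of SCA1-High-FAPs. Without that replicate both were called, with adjusted *p*-values of 0.0232 for *H2-D1* and 0.0217 for *H2-K1*. *H2-D1* was also called without replicate 3 of SCA1-High-FAPs (0.0365) and *H2-K1* without replicate 4 of SCA1-High-FAPs (0.0459). When any other sample was left out neither passed, with 0.0625 to 0.161 for *H2-D1* and 0.0715 to 0.177 for *H2-K1*. On all samples *H2-D1* was called by DESeq2 (0.0352), and by edgeR with RLE factors (0.0489), with no filter beyond 1 count (0.0105) and with at least 10 counts in every sample (0.0378). *H2-K1* was called under these 2 filters (0.0447 and 0.0468). With the replicate number as a block, *H2-D1* was called neither by edgeR (0.11) nor by DESeq2 (0.0843). The same held for *H2-K1* (0.0644 and 0.0829). Heavy chains are near-identical to one another over long stretches, and reads that aligned to more than 1 place were counted for none, so the split between them is uncertain. Transcripts of *Tap1*, a subunit of the peptide transporter, ranged from 20.2 to 28.2 CPM in SCA1-High-FAPs and from 14.7 to 21.8 CPM in SCA1-Low-FAPs, and the gene did not pass (log2 fold change −0.43, SE 0.27, adjusted *p* = 0.406). Summed over the 8 genes, class I transcripts came to 1183 to 1511 CPM in SCA1-High-FAPs and 775 to 933 CPM in SCA1-Low-FAPs. Most of this sum was *B2m*, with a mean of 783 of 1363 CPM in SCA1-High-FAPs and 492 of 848 CPM in SCA1-Low-FAPs.

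**Figure D2:**
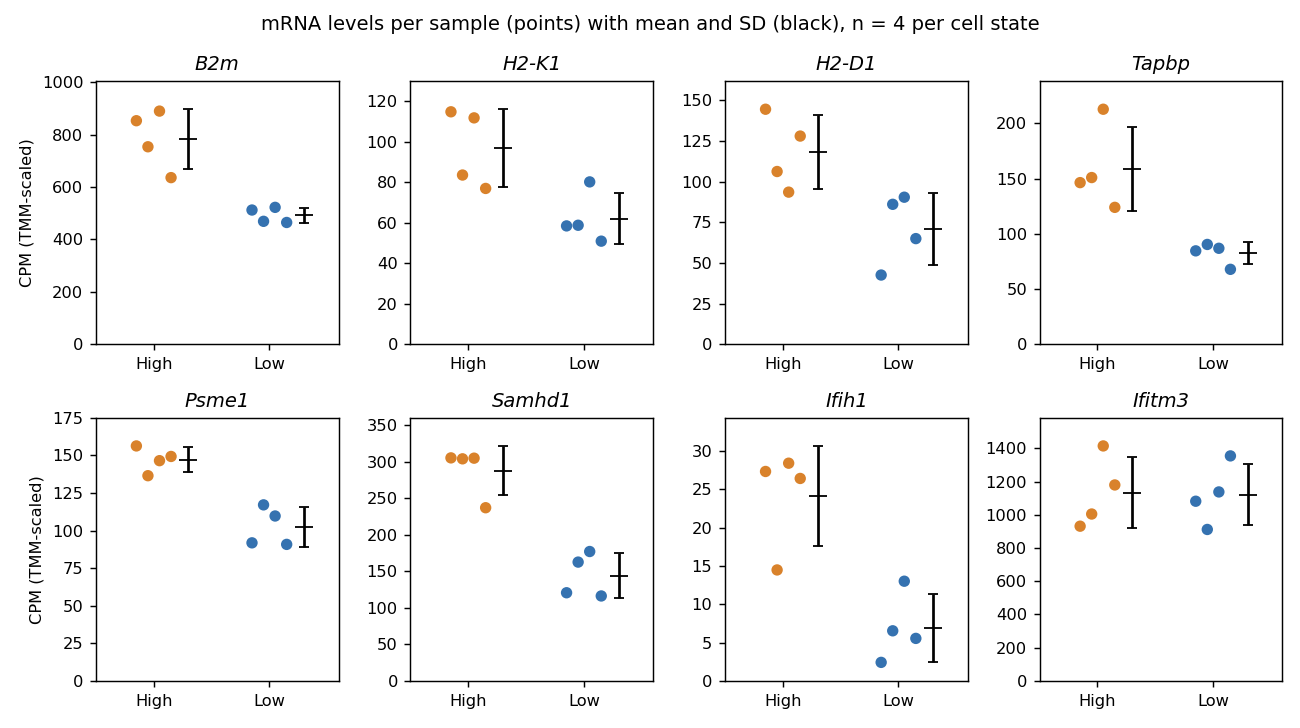
CPM (y axis, from 0) of 8 genes in each sample (points), with the mean and SD of each cell state in black (n = 4). *B2m*, *H2-D1*, *Tapbp*, *Psme1*, *Samhd1* and *Ifih1* separate the cell states without overlap, *H2-K1* overlaps at 1 sample and *Ifitm3* overlaps throughout.

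Interferon replaces the 3 constitutive catalytic subunits of the proteasome with the inducible ones encoded by *Psmb8*, *Psmb9* and *Psmb10*. Singly none of these passed: *Psmb8* had a log2 fold change of −0.58 (SE 0.31, adjusted *p* = 0.301), *Psmb10*, which is outside the 41 genes, one of −0.50 (SE 0.24, adjusted *p* = 0.235), and *Psmb9* was not tested. Counts of *Psmb9* were 16, 9, 6 and 41 in SCA1-High-FAPs and 1, 7, 4 and 1 in SCA1-Low-FAPs, and its gene model overlaps that of *Tap1* on the opposite strand. The reads of the 3 inducible genes made up 22.2%, 17.7%, 23.4% and 17.6% of all reads on the 6 catalytic subunit genes in SCA1-High-FAPs. In SCA1-Low-FAPs they made up 10.1%, 13.6%, 11.6% and 11.8%. *Psmb8* and *Psmb9* held 64 and 16 of the 184 inducible reads in replicate 1 of SCA1-High-FAPs. They held 20 and 1 of 89 in replicate 1 of SCA1-Low-FAPs, and 85 and 4 of 165 in its replicate 3. The remaining inducible reads fell on *Psmb10*, so the shares are not a measure of *Psmb8* and *Psmb9* alone. The shares averaged 20.2% ± 3.01 and 11.8% ± 1.42 (SD, n = 4), and the highest sample of SCA1-Low-FAPs had a 95% Wilson interval of 11.4% to 16.1%, which overlaps that of the lowest sample of SCA1-High-FAPs, 15.5% to 19.9%. These intervals cover counting error only. Of 14 constitutive proteasome genes tested 0 were called by edgeR and 0 by DESeq2. By edgeR, 0 and 2 had an unadjusted *p* under 0.05 towards the High and the Low state respectively. Their log2 fold change was positive for 11 of the 14, with a median of 0.18. Summed, they stood at 2246 to 2443 CPM in SCA1-High-FAPs and at 2604 to 2753 CPM in SCA1-Low-FAPs, without overlap. The shares above depend on reads of both kinds of subunit, and the part of each was not tested.

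**Figure D3:**
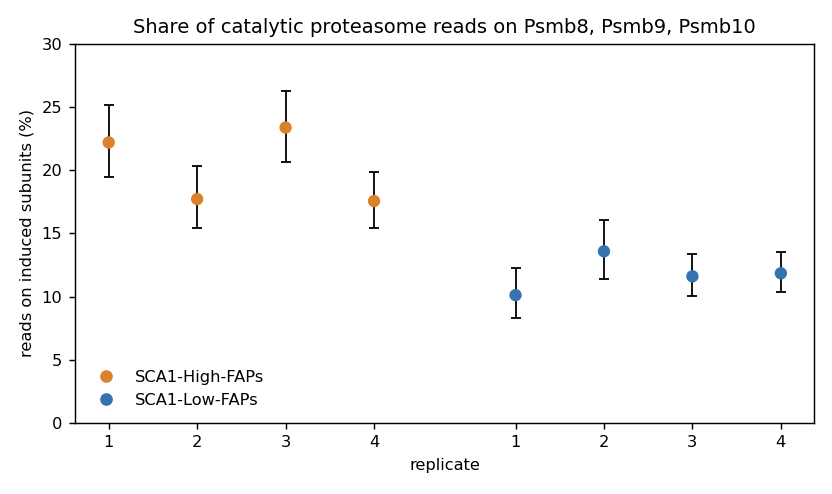
Share of reads (y axis, %) that fell on *Psmb8*, *Psmb9* and *Psmb10* among those on all 6 catalytic subunit genes, in each replicate (x axis) of both cell states, with 95% Wilson intervals. The samples of SCA1-High-FAPs lie between 17.6% and 23.4%, above the 10.1% to 13.6% of SCA1-Low-FAPs.

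Among genes that sense viral RNA, *Ifih1* had the largest change of all tested genes of the set. *Ifih1* encodes MDA5, the cytosolic sensor of long double-stranded RNA (chromosome 2, from 62595798 to 62646255). It was at 27.3, 14.5, 28.4 and 26.4 CPM in SCA1-High-FAPs and at 2.42, 6.53, 13.0 and 5.54 CPM in SCA1-Low-FAPs. The highest SCA1-Low-FAPs sample, replicate 3, came close to the lowest SCA1-High-FAPs sample without reaching it. The log2 fold change was −1.78 (SE 0.43, adjusted *p* = 0.0157), or 3.43-fold, and the adjusted *p* rose to 0.0582 without replicate 4 of SCA1-Low-FAPs. *Ddx58*, which encodes the related sensor RIG-I, took the other sign, at 35.8, 20.8, 15.9 and 23.5 CPM against 22.7, 28.9, 29.5 and 34.6 CPM. The cell states overlapped (log2 fold change 0.28, SE 0.29, 95% interval −0.32 to 0.88, adjusted *p* = 0.637). *Eif2ak2*, which encodes the kinase PKR, and *Trim25*, a ubiquitin ligase that acts on RIG-I, had log2 fold changes of −0.30 (SE 0.27, adjusted *p* = 0.574) and −0.34 (SE 0.31, adjusted *p* = 0.591). *Dhx58*, which encodes the third RIG-I-like protein LGP2, had at most 12 counts in a sample.

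Of 14 antiviral effector genes 5 were tested and 1 was called, where 7.68% of all tested genes were called in either direction. *Samhd1* encodes a hydrolase that depletes deoxynucleotides and so restricts retroviruses (chromosome 2, from 157097533 to 157135265). It was at 306, 304, 305 and 237 CPM in SCA1-High-FAPs and 121, 163, 177 and 116 CPM in SCA1-Low-FAPs. The groups stood well apart, with a log2 fold change of −1.0 (SE 0.17) and the smallest adjusted *p* of the set, 0.00173. *Ifitm3*, which hinders virus entry at endosomes, was the most abundant of the 41 genes by reads and showed no such gap, at 932, 1005, 1415 and 1180 CPM against 1082, 912, 1138 and 1355 CPM. The ranges of the 2 cell states almost coincided, and the log2 fold change of −0.01 (SE 0.16) had a 95% interval of −0.36 to 0.33. Its neighbour *Ifitm2* had −0.17 (SE 0.16, 95% interval −0.51 to 0.17, adjusted *p* = 0.603). *Ifitm* genes are close copies of one another, so their counts may miss reads. *Gbp2*, a guanylate-binding protein gene, had a log2 fold change of −0.69 (SE 0.36, adjusted *p* = 0.292), with 16.0, 17.6, 16.3 and 27.9 CPM in SCA1-High-FAPs and 7.73, 20.2, 11.4 and 9.50 CPM in SCA1-Low-FAPs. Replicate 2 of SCA1-Low-FAPs was above 3 of the SCA1-High-FAPs samples. *Isg20*, which encodes an exonuclease for single-stranded RNA, separated the groups at a low level, 7.93 to 11.8 CPM against 5.80 to 7.66 CPM, and did not pass (log2 fold change −0.58, SE 0.42, adjusted *p* = 0.472).

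The transcription factors of the pathway had negative log2 fold changes, and 0 of the 3 tested were called. *Irf9*, which gives the complex with STAT2 its DNA contact, was at 24.5, 47.9, 30.9 and 33.0 CPM in SCA1-High-FAPs and 26.1, 10.9, 18.1 and 10.8 CPM in SCA1-Low-FAPs. Replicate 1 of SCA1-Low-FAPs lay above the lowest SCA1-High-FAPs sample, and the log2 fold change of −1.06 (SE 0.33) had an adjusted *p* of 0.0551, which fell to 0.0336 without that replicate. It ran from 0.0534 to 0.181 when any other sample was left out. The 0.181, with a log2 fold change of −0.84, was without replicate 2 of SCA1-High-FAPs. The *Irf9* gene overlaps *Rnf31* on the same strand. *Stat2* was at 13.2, 10.9, 12.5 and 18.0 CPM against 4.35, 5.99, 8.56 and 5.81 CPM, without overlap and with a log2 fold change of −1.13 (SE 0.41, adjusted *p* = 0.11). *Irf1*, a factor that drives class I and GTPase genes, was at 32.0, 30.3, 40.5 and 35.2 CPM against 20.3, 27.2, 26.3 and 24.3 CPM, also without overlap (log2 fold change −0.49, SE 0.24, adjusted *p* = 0.251). At an unadjusted *p* under 0.05, edgeR gave 2 of the 3 (*Stat2* and *Irf9*), both with more mRNA in SCA1-High-FAPs. DESeq2 called *Irf9* alone (adjusted *p* = 0.0411), and did not call it with the replicate number as a block (adjusted *p* = 0.104). Summed with *Irf7*, which was too low to test, the group came to 73.9 to 96.1 CPM in SCA1-High-FAPs and 43.3 to 53.9 CPM in SCA1-Low-FAPs.

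Genes for ISG15 and for ADP-ribosylation gave 0 calls among 4 tested by edgeR, with 2 at an unadjusted *p* under 0.05. These 2, *Parp14* and *Dtx3l*, lie with *Parp9* on chromosome 16 and encode ADP-ribosyltransferases and a ubiquitin ligase that work as partners. *Parp14* was at 15.5 to 32.5 CPM in SCA1-High-FAPs and 6.86 to 14.7 CPM in SCA1-Low-FAPs, with −1.12 as log2 fold change (SE 0.35, adjusted *p* = 0.0596). *Dtx3l* was at 16.0, 14.9, 19.6 and 32.3 CPM against 3.38, 10.4, 10.2 and 10.3 CPM (log2 fold change −1.26, SE 0.40, adjusted *p* = 0.0616). Both were free of overlap, and DESeq2 called both (adjusted *p* = 0.0439 and 0.0432), while among the fits with a sample left out edgeR called *Parp14* in 1, that without replicate 3 of SCA1-High-FAPs (adjusted *p* = 0.0482), and *Dtx3l* in 0. *Parp9*, whose product binds that of *Dtx3l*, had a log2 fold change of 0.21 (SE 0.34, adjusted *p* = 0.794). At 29.5 CPM, replicate 1 of SCA1-Low-FAPs stood above the 11.4 to 18.0 CPM of the other samples. Without that replicate the log2 fold change of *Parp9* was −0.12. *Parp9* and *Dtx3l* lie head to head and overlap on opposite strands at their starts, away from the ends that these libraries mainly read. Since the strand setting of the counting is not stated, their reads may still not be fully apart. *Isg15* itself was scarce, with 13, 15, 3 and 25 counts against 6, 0, 12 and 18, and was not separated (log2 fold change −0.94, SE 0.74, adjusted *p* = 0.515).

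The remaining tested genes of the set did not pass the test. *Ifi27*, a mitochondrial protein gene, was at 177 to 202 CPM in SCA1-High-FAPs and 128 to 178 CPM in SCA1-Low-FAPs, with −0.31 as log2 fold change (SE 0.15, adjusted *p* = 0.238). *Ifi35* was at 13.1 to 25.9 CPM and 5.45 to 16.4 CPM (log2 fold change −0.50, SE 0.37, adjusted *p* = 0.486).

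16 genes of the set were below the filter, with 4 to 101 counts over the 8 samples and at most 41 in any sample. They include effectors known for a strong response to type I interferon (*Ifit1*, *Ifit2*, *Ifit3*, *Rsad2*, *Cmpk2*, *Oasl2*, *Bst2*), the ISG15 protease gene *Usp18*, and *Irf7*, the factor that amplifies interferon production. *Rsad2*, which encodes viperin, had 4 counts in replicate 2 of SCA1-High-FAPs and 0 elsewhere, which is not detectable as a difference at this depth. Summed, the 16 genes had 125, 145, 146 and 162 counts in SCA1-High-FAPs and 17, 17, 82 and 89 in SCA1-Low-FAPs, or 58.9, 65.6, 61.0 and 59.4 CPM against 8.22, 9.26, 26.0 and 23.5 CPM. The 4 samples of SCA1-High-FAPs were close to each other in this sum, and replicates 3 and 4 of SCA1-Low-FAPs were above replicates 1 and 2. Replicate 2 of SCA1-Low-FAPs, which had the fewest reads, was at 0 for 13 of the 16 genes, and replicate 4, which had the most, for 2. The level of *Gbp3*, a guanylate-binding protein gene, was 2.35, 13.6, 10.4 and 9.54 CPM against 0, 0, 3.49 and 1.06 CPM, overlapping at replicate 3 of SCA1-Low-FAPs. DESeq2, which was run without this filter, called *Gbp3* (log2 fold change −2.87, adjusted *p* = 0.0164) and *Rtp4*, a chaperone of receptors (−2.88, adjusted *p* = 0.0414). *Rtp4* counts were 16, 1, 25 and 16 against 1, 0, 3 and 6, with replicate 2 of SCA1-High-FAPs inside the range of SCA1-Low-FAPs. *Rtp4* overlaps *Masp1*, which had 2513 counts in all, on the opposite strand.

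**Figure D4:**
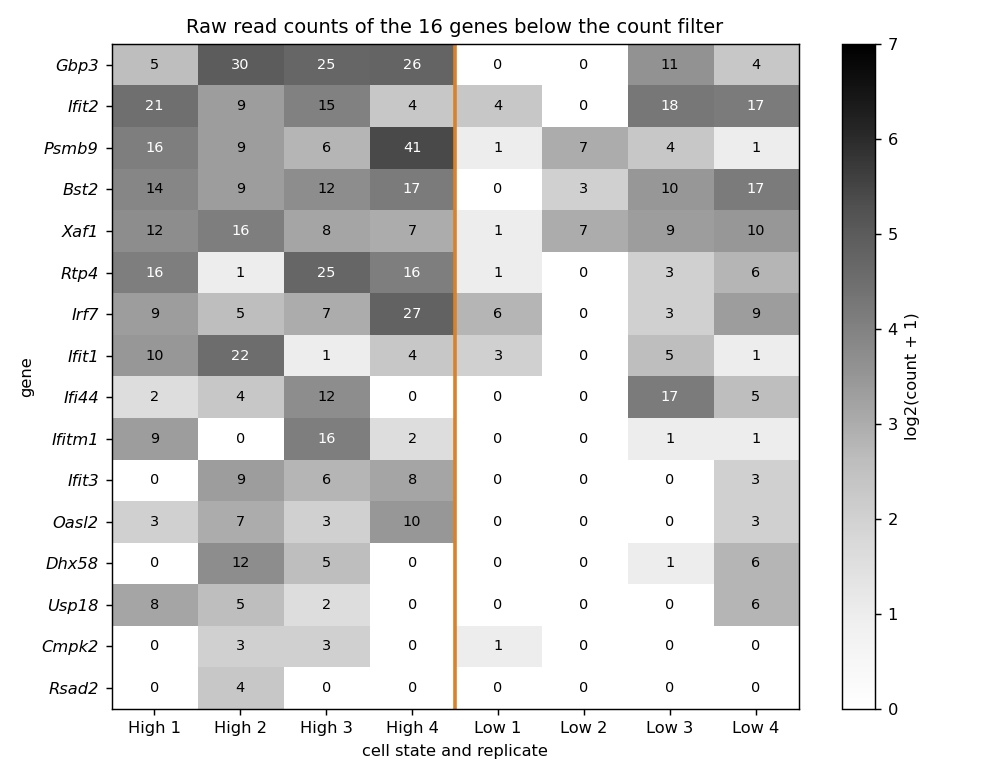
Raw read counts of the 16 genes below the count filter (y axis) in each sample (x axis), shaded by log2(count + 1), with the High state to the left of the line and the Low state to its right. The 4 samples on the left sum to 125 to 162 counts, and replicates 1 and 2 of SCA1-Low-FAPs to 17 each.

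Promoters of the set were searched for the core of the ISRE (GAAA, 2 bases of any kind and GAAA again, on either strand) and for the GAS (TTC, 3 bases of any kind and GAA, which reads the same on both strands) in the 250 bases before each RefSeq transcription start. RefSeq sequences on GRCm38.p6 were found for 35 of the 41 genes. The ISRE core was present in 10 of the 35 genes and in 3.46% of all 27025 genes of the table, and the GAS in 7 of 35 and in 8.13%. Of the 5 called genes, *B2m* holds the ISRE core from 139 to 130 bases before the start and *Samhd1* a GAS from 235 to 227 bases before it, and the windows of *Ifih1*, *Tapbp* and *Psme1* hold neither string. Among tested genes that did not pass, *Stat2*, *Isg15*, *Ifitm2* and *Gbp2* also hold the ISRE core, and *Irf1*, *Isg20*, *Eif2ak2* and *Psmb8* the GAS. A match is a string of letters and not a shown binding site, and its absence says only that these letters are not in this window. The windows of the 5 called genes are shown so that the matches can be set beside those of *Isg15*, *Ifit1* and *Gbp3*, which were scarce in these cells, each read 5′ to 3′ on the strand of the gene with matches in capitals. Overlapping matches run together in *Isg15* and *Gbp3*.
B2m, + strand, chr2:122147437-122147686: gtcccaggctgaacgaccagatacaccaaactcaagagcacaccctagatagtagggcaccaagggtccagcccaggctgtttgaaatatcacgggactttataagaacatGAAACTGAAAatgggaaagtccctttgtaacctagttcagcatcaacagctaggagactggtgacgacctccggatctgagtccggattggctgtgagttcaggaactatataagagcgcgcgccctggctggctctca
Samhd1, - strand, chr2:157135097-157135346: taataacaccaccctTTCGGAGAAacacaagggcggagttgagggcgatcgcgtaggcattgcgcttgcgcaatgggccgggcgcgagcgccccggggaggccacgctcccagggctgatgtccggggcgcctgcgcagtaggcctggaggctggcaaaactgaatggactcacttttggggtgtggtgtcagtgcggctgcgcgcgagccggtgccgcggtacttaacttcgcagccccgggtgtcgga
Ifih1, - strand, chr2:62646256-62646505: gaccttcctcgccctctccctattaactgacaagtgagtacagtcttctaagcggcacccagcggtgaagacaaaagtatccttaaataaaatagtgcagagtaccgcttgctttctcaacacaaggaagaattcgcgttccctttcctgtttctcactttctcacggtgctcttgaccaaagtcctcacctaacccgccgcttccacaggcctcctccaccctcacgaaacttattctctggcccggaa
Tapbp, + strand, chr17:33919228-33919477: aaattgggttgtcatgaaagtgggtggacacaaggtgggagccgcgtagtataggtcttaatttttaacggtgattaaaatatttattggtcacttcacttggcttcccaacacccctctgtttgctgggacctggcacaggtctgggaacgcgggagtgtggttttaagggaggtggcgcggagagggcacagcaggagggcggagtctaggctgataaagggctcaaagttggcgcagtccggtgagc
Psme1, + strand, chr14:55578244-55578493: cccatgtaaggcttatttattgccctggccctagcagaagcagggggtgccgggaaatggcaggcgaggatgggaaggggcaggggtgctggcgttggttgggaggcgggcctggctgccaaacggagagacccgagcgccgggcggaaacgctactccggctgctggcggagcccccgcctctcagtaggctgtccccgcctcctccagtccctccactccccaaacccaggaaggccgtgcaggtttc
Isg15, - strand, chr4:156200819-156201068: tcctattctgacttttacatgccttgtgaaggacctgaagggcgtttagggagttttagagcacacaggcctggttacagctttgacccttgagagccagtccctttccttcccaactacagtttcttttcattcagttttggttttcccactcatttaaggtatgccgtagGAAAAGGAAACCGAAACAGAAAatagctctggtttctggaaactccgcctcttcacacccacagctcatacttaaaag
Ifit1, + strand, chr19:34640639-34640888: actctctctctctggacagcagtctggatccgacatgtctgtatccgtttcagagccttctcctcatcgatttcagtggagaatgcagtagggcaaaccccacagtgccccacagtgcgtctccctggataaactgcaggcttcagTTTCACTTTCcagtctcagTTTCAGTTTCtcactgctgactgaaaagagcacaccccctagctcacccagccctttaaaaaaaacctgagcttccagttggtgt
Gbp3, + strand, chr3:142559794-142560043: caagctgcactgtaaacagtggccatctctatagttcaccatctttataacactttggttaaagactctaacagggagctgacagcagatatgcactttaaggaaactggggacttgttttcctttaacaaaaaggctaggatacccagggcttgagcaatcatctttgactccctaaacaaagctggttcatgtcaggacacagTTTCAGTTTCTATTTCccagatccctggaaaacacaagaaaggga

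The wider pathway was described with 122 further genes in 4 lists, of which 69 were tested. Of these, 12 were called higher in SCA1-High-FAPs and 1 higher in SCA1-Low-FAPs, where 4.36% and 3.32% of all tested genes were, and 55 of 69 had a negative log2 fold change (median −0.48). Several of the 12, named below, did not reach 10 counts in every SCA1-Low-FAPs sample, so the count filter bears on this number. With at least 10 counts required in every sample, the 13 calls became 7. All of the called genes except *Ifnar2*, and *B2m*, *Ifih1*, *Samhd1* and *Tapbp* of the 41, appear in the gene lists of the study's own enrichment analysis of these samples, so their direction is not independent evidence. The list of ligands, receptors and signal transducers gave 2 calls among 23 tested (8.7%), near the 7.68% of all tested genes called in either direction. Both were higher in SCA1-High-FAPs, 5 of the 23 had a positive log2 fold change, and the median was −0.26. The interferon genes *Ifnb1* and *Ifng* had 0 counts in every sample. Of the receptor chains, *Ifngr1* was at 157, 131, 187 and 106 CPM in SCA1-High-FAPs and 54.6, 67.0, 67.6 and 65.5 CPM in SCA1-Low-FAPs, with −1.19 as log2 fold change (SE 0.19, adjusted *p* = 0.00119). *Ifnar2* was at 116, 106, 185 and 83.6 CPM against 55.6, 51.7, 71.7 and 64.2 CPM (log2 fold change −1.01, SE 0.22, adjusted *p* = 0.00942). Both separated the cell states, whereas their partner chains *Ifnar1* (log2 fold change 0.12, SE 0.26, adjusted *p* = 0.845) and *Ifngr2* (−0.83, SE 0.28, adjusted *p* = 0.0835) did not pass.

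The interferon-inducible GTPases, which attack the membranes around intracellular parasites, gave 4 calls among 5 tested of 16 listed. Of all tested genes, 7.68% were called in either direction. Of the 4, *Irgm2*, *Gm4951* and *F830016B08Rik* reached 10 counts in all SCA1-High-FAPs samples but not in all SCA1-Low-FAPs samples, so that the share of calls in this list follows in part from the count filter. *Iigp1* was at 99.3, 54.3, 98.5 and 56.1 CPM in SCA1-High-FAPs and 10.2, 26.1, 27.3 and 12.1 CPM in SCA1-Low-FAPs, with −2.03 as log2 fold change (SE 0.33, adjusted *p* = 0.00165). *F830016B08Rik* was at 12.1 to 16.5 CPM against 0 to 1.27 CPM, the latter from 1, 0, 4 and 1 counts (−4.64, SE 0.65, adjusted *p* = 0.000612). *Gm4951* had −2.68 (SE 0.57, adjusted *p* = 0.014, and 0.0705 without replicate 4 of SCA1-Low-FAPs). *Irgm2* had −2.26 (SE 0.57, adjusted *p* = 0.0215) and was called in 3 of the 8 fits that left out a sample, with 0.0513 to 0.12 in the other 5, which left out replicate 1 or 4 of SCA1-High-FAPs or replicate 1, 2 or 4 of SCA1-Low-FAPs. *Gbp2* and *Gbp3* of the 41 genes are guanylate-binding protein genes. This list also holds genes of that family, *Gbp4* to *Gbp10*, and none of them is among the 4 calls.

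Among other stimulated genes, 5 of 29 tested were called, all higher in SCA1-High-FAPs, where 4.36% of all tested genes were called in this direction. *Ifi203*, *Ifi27l2a* and *Ifi205* among them did not reach 10 counts in every SCA1-Low-FAPs sample. *Slfn5*, a Schlafen family gene, was at 145, 113, 205 and 140 CPM against 28.5, 28.3, 39.0 and 35.4 CPM (log2 fold change −2.19, SE 0.21, adjusted *p* = 5.37e-05). *Lgals3bp*, a secreted glycoprotein gene, was at 215 to 335 CPM against 133 to 162 CPM (−0.89, SE 0.16, adjusted *p* = 0.00225). *Ifi203*, of the HIN-200 family, had −2.04 (SE 0.42, adjusted *p* = 0.00615), and *Ifi27l2a* −2.70 (SE 0.66, adjusted *p* = 0.0179), which rose to 0.0858 without replicate 1 of SCA1-High-FAPs and 0.0573 without replicate 4 of SCA1-Low-FAPs. The fifth, *Ifi205*, falls outside the rule for naming and was added after its value was seen (−2.65, SE 0.77, adjusted *p* = 0.0409). Its call was lost without replicate 1 or 3 of SCA1-High-FAPs or replicate 1, 2 or 4 of SCA1-Low-FAPs (0.0667 to 0.219).

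Of 12 further class I genes tested, 2 were called, in opposite directions, where 7.68% of all tested genes were called in either direction. *Cd1d1*, which encodes a lipid-presenting molecule that also pairs with beta-2 microglobulin, was at 34.4, 25.8, 51.8 and 27.1 CPM against 5.32, 14.2, 11.7 and 4.49 CPM (log2 fold change −1.98, SE 0.38, adjusted *p* = 0.00348). *Calr*, an endoplasmic reticulum chaperone with many clients besides class I, was at 1174, 1405, 1829 and 1380 CPM against 2208, 2155, 1894 and 2844 CPM (log2 fold change 0.65, SE 0.17, adjusted *p* = 0.0215). *Calr* was called in 3 of the 8 fits that left out a sample, and stood at 0.0548 to 0.095 in the other 5, which left out replicate 1, 2 or 4 of SCA1-High-FAPs or replicate 1 or 4 of SCA1-Low-FAPs. *Tap2*, *Psme2* and *Psmb10* did not pass, with log2 fold changes of −0.76, −0.25 and −0.50.

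**Figure D5:**
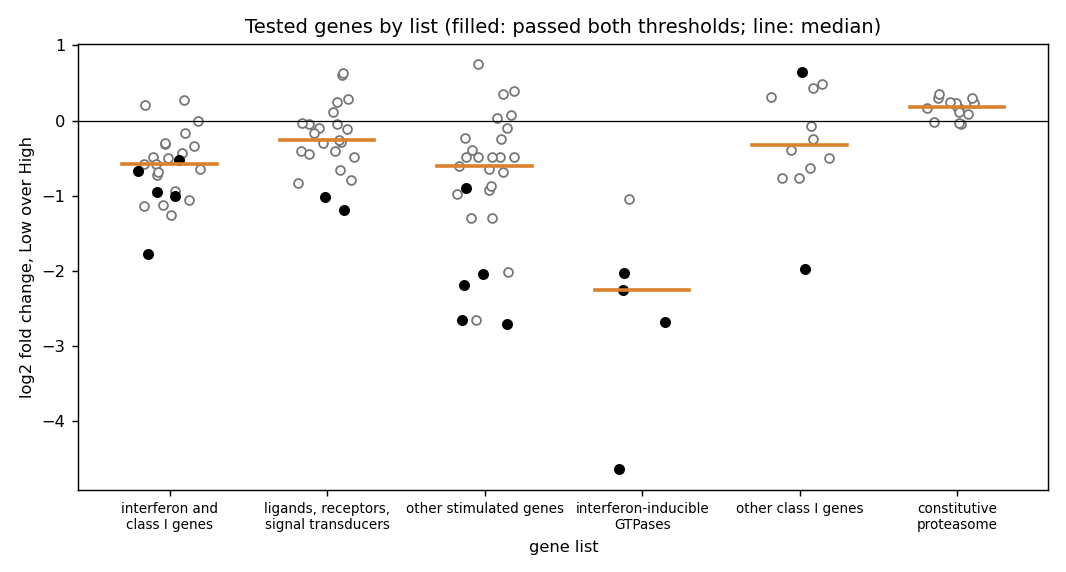
Log2 fold change, Low over High (y axis), of the tested genes of each list (x axis), with filled points for called genes and a line at the median. The median over genes that passed the count filter is −0.58 for the interferon and class I genes and 0.18 for the constitutive proteasome, and only 5 of 16 GTPase genes could be drawn.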

How the data were processed

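RNA of 4 SCA1-High-FAPs and 4 SCA1-Low-FAPs samples was sequenced as QuantSeq 3′ FWD libraries. The authors trimmed the reads, aligned them with STAR 2.6.0a to mm10 and counted them with htseq-count on Ensembl release 93. The deposited values are raw counts per gene, with reads aligned to several places given to no gene. Reads on no gene, 13.3% to 16.4% of each library, were left out. The strand setting is not given in the sources used here, and molecular identifiers are not mentioned. The labels name separate samples without naming mice, so *p*-values measure the spread between these samples.

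From these counts, 31011 of 31053 identifiers were matched to GENCODE M21 on GRCm38. Genes were kept by filterByExpr (minimum 10 counts, 15 in total) and compared by robust quasi-likelihood tests in edgeR 4.0.16 (R 4.3.3) with TMM factors, Benjamini-Hochberg adjustment over all tested genes, an adjusted *p* under 0.05 and a log2 fold change beyond 0.5. SE is the size of the log2 fold change over the square root of F. The alternatives were DESeq2 1.42.0, RLE factors, other count filters, a stricter *p*, no limit on the fold change, the replicate number as a block and each sample left out. Scripts were tested on simulated data. All 41 genes were named, and from each further list up to 4 called genes per direction by adjusted *p*. The members, lists, tests and alternatives were chosen with earlier results of these data known.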

Additional observations from a re-analysis of the deposited data

Results flagged for a closer look

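Within each group of 4 samples, a sample was picked out when its gap to the nearest other sample exceeded Dixon's 95% critical share of the whole range, and 5 of 56 groups held such a sample, where chance picks out about 1 in 20. *Ifih1* was at 14.5 CPM in replicate 2 of SCA1-High-FAPs, below the 26.4 to 28.4 CPM of the other replicates. *Samhd1* was at 237 CPM in replicate 4 of SCA1-High-FAPs, below 304 to 306 CPM. In the same replicate *Eif2ak2* was at 30.4 CPM, above 22.1 to 23.1 CPM, and *Gbp2* at 27.9 CPM, above 16.0 to 17.6 CPM. *Dtx3l* was at 3.38 CPM in replicate 1 of SCA1-Low-FAPs, below 10.2 to 10.4 CPM. No cause of these values was tested.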

How the results depend on the processing

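Of the 41 genes, 5 were called, all higher in SCA1-High-FAPs. The share of all genes called in the same setting follows in brackets. DESeq2 gave 11 (8.53%), no filter beyond 1 count 9 (6.63%), at least 10 counts in every sample 8 (8.77%) and RLE factors 6 (7.7%). An adjusted *p* under 0.01 gave 3 (307 of all 10181 tested genes). Leaving out each sample gave 3 (without replicate 4 of SCA1-Low-FAPs, 3.96%) to 8 (without replicate 3 of SCA1-Low-FAPs, 9.85%). Every one of these was higher in SCA1-High-FAPs, and 0 genes of the 41 were called higher in SCA1-Low-FAPs under any of these alternatives. Over all genes 782 were called, 307 at an adjusted *p* under 0.01, 1052 without the filter, and 410 to 1017 with a sample left out (410 without replicate 4 and 417 without replicate 1 of SCA1-Low-FAPs). The 13 calls among further pathway genes became 7 with at least 10 counts in every sample, 8 at an adjusted *p* under 0.01, and 8 to 14 with a sample left out, 8 being without replicate 4 of SCA1-Low-FAPs. The sign of *Ifitm3* turned without the filter (log2 fold change 0.01) and ran from −0.13 to 0.11 with a sample left out, and that of *Parp9* turned to −0.12 without replicate 1 of SCA1-Low-FAPs (range −0.12 to 0.37). The cause of these changes was not tested. The samples of the 2 cell states share only a number: deviations of same-numbered samples correlated at −0.0502 to 0.00673 and 0 samples correlated best with their own number. With the replicate block edgeR called 4 of the 41 genes (without *Psme1*, adjusted *p* = 0.0963), 697 genes in all and 10 further pathway genes, and DESeq2 called 5, 841 and 14 (without *Psme1*, adjusted *p* = 0.119, and *Rtp4*, 0.0765, among others). Depth limits the 16 genes below the filter, which had at most 101 counts each.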
